A study of Mus musculus with 36 samples.

Results

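The 8 mouse genes Chrm4, Tgm3, Susd5, Nmd3, Tacr3, Cadps, Itga4 and Slc45a3, were described in bulk RNA-seq libraries of embryonic gonads. They are 8 of the 21699 genes in each count table, all on autosomes, and were chosen by symbol because in these same data they had differed between XX and XY mutants, or had shown a different effect of the mutation in XX and in XY gonads. Chrm4 and Tgm3 were also chosen for a mutant effect that turned its direction between the stages. The values of these contrasts therefore describe the genes and test nothing. All 8 were among the 14217 genes tested at E11.5 and the 14348 tested at E12.5.

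The mutants, called KO, lack the miR-17~92 cluster and carry Tg(CAG-cre)1Nagy;miR-17~92del/del, a floxed allele from a C57BL/6 × 129S4/SvJae background that was deleted by a Cre transgene under the broadly active CAG promoter. Controls are labelled as wild type, and whether they carried Cre or a floxed allele is not given in the sources used here. Embryos of 4 genotypes (XX and XY control, XX and XY KO) were each sampled at the embryonic stages E11.5 and E12.5, a day apart, with 3 libraries per genotype and stage and 2 pairs of gonads pooled in each library, 24 libraries in all. At E11.5 RNA came from gonads with the attached mesonephros, and later from gonads alone, and a different library kit was used at each stage, so stage, tissue and kit cannot be told apart. Levels are CPM, the counts of a gene per 1000000 counts of its library, scaled by the TMM method. Total counts lay between 11877379 and 44155275. Xist, transcribed from the inactive X, was at 1340 CPM or more in every XX library and at 4.72 CPM or less in every XY library. Mir17hg, the host transcript of the cluster, was higher in the KO groups, at 102 ± 4.94 against 20.7 ± 1.46 CPM in XX gonads at E11.5 (SD, n = 3). Its counts cover the whole transcript, and so do not measure the deletion. The 5 gonadal somatic markers (Nr5a1, Gata4, Wt1, Lhx9 and Cbx2) were present in every group, summing to between 871 and 1763 CPM.

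The mouse gonad is bipotential until about these stages. In XY embryos Sry starts the differentiation of Sertoli cells and the testis, and in XX embryos the supporting cells become pre-granulosa cells. A microRNA lowers the output of messenger RNAs that pair with its seed, the bases 2 to 8 from its 5′ end, mostly through sites in the 3′ UTR. The 8 genes share no single pathway. They encode receptors and adhesion molecules of the cell surface (Chrm4, Tacr3, Itga4, Susd5), a protein-crosslinking enzyme (Tgm3), a factor of regulated secretion (Cadps), a sugar carrier (Slc45a3) and an export adaptor of the large ribosomal subunit (Nmd3).

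The 6 mature microRNAs of the cluster are shown first because their seeds define what a site in one of the 8 genes would look like. The sequences are from RefSeq on GRCm38.p6, where the cluster lies on chromosome 14, and capitals mark the seed. The miR-17 family has 2 members here, the miR-19 family 2, and miR-18a and miR-92a each stand alone.

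miR-17-5p: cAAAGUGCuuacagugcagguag
miR-20a-5p: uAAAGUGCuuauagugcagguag
miR-18a-5p: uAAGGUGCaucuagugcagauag
miR-19a-3p: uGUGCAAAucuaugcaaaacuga
miR-19b-3p: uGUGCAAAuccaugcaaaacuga
miR-92a-3p: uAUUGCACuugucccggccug

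The 3′ UTRs of the GENCODE M21 models were searched on the sense strand for the reverse complements of these seeds, GCACTTT (miR-17), GCACCTT (miR-18), TTTGCAC (miR-19) and GTGCAAT (miR-92). Of the 7 genes with an annotated 3′ UTR, 4 held a match, with 5 matches in all, and 3 held none (Susd5, Tacr3 and Slc45a3). For comparison, 28.8% of all 21037 annotated 3′ UTRs held a match to at least 1 of the 4 families. The GENCODE model of Chrm4 has no 3′ UTR, and none was searched. The matches are shown with their flanks so that they can be set against the seeds above. Capitals mark the seed match and, where it is there, the A that follows it in an 8-base match.

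Tgm3, miR-19 family, chr2:130048611-130048640, + strand: acttgatcagtTTTGCACAtttcctgattg
Tgm3, miR-92 family, chr2:130048871-130048899, + strand: atgccaaacaaGTGCAATcatacaccacc
Itga4, miR-17 family, chr2:79327736-79327765, + strand: ttataaatatcGCACTTTAgctgatacaca
Cadps, miR-17 family, chr14:12372708-12372736, − strand: tcatgtacattGCACTTTgatctgtaact
Nmd3, miR-18 family, chr3:69755135-69755163, + strand: acacacagactGCACCTTgcaacctaggc

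These matches are letters found in the GRCm38 reference. The Nmd3 match lies in a 3′ UTR of 7471 bases, and 32.2% of the 366 3′ UTRs of like length held a miR-18 match. It also lies beyond 69749047, where the RefSeq model of Nmd3 ends. The Itga4 match is in a 3′ UTR of 6508 bases, where 43.0% of UTRs of like length held a miR-17 match. The Cadps 3′ UTR is 1049 bases long, and the share of UTRs of like length with a miR-17 match was 9.36%. In the Tgm3 3′ UTR of 1999 bases a miR-19 and a miR-92 match were found, and the shares at like length were 15.1% and 9.01%. None of these 4 genes lay above the controls of the same sex in both KO groups without overlap at either stage. In XY gonads alone, Nmd3 did so at E11.5 and Tgm3 at E12.5. Susd5, which held no match, did so in both KO groups at E11.5. The genes were chosen partly for an effect that differed between the sexes, so these levels are no test of the matches.

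**Figure D1:**
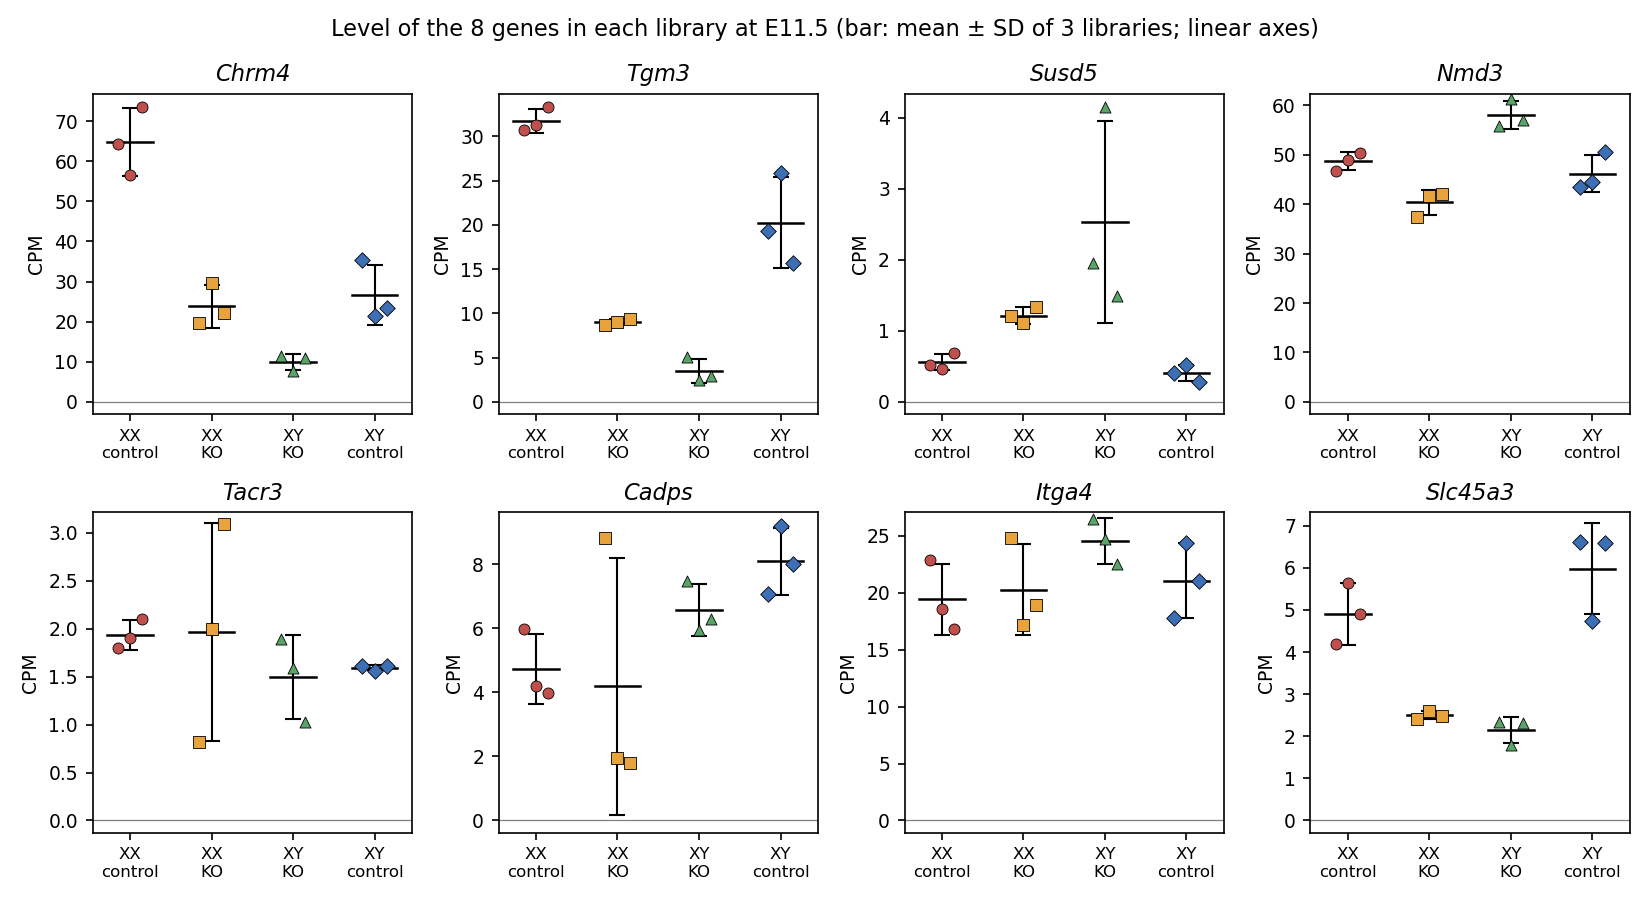
Level of each of the 8 genes in the 12 libraries of E11.5, in CPM on linear axes that differ between genes, by genotype. Points are single libraries, in the order of replicates 1 to 3, and bars give the mean ± SD of 3 libraries. Chrm4, Tgm3 and Slc45a3 were lower in both KO groups than in the controls of the same sex, and Cadps had 1 XX KO library at 8.82 CPM far above the other XX KO libraries.

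**Figure D2:**
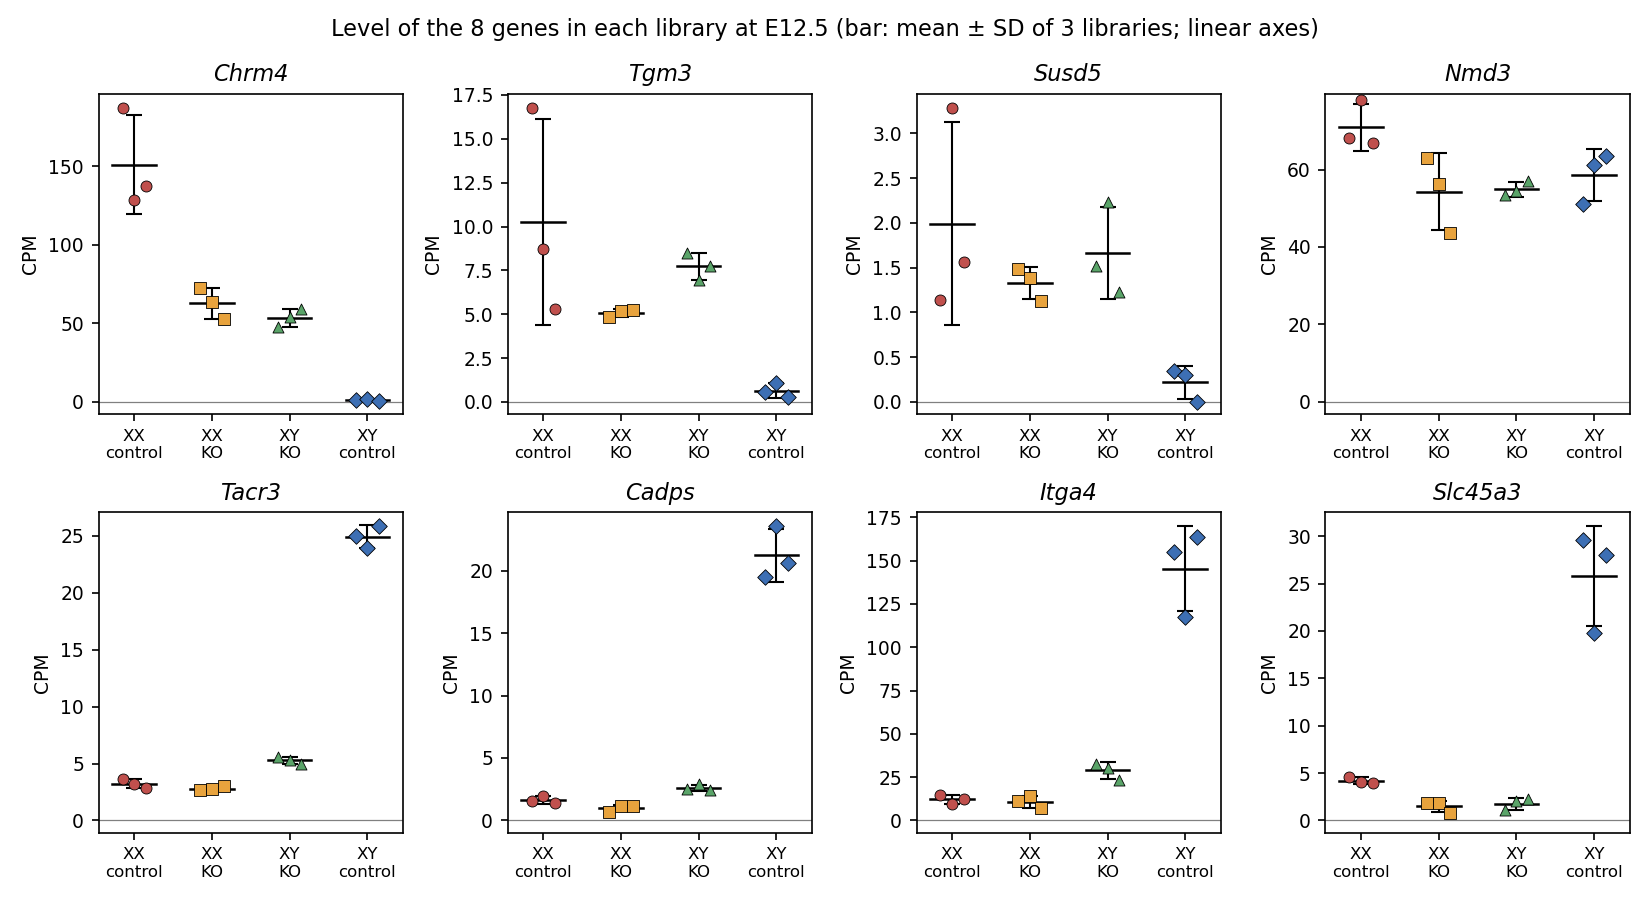
Level of each of the 8 genes in the 12 libraries of E12.5, drawn as for E11.5. Chrm4, Tgm3 and Susd5 were near 0 in XY control gonads, while Tacr3, Cadps, Itga4 and Slc45a3 were highest there, and XY KO gonads lay far from XY control gonads in all 7.

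Chrm4 encodes a muscarinic acetylcholine receptor that acts through inhibitory G proteins. It lies on chromosome 2 at 91927249 to 91928688 on the + strand (GRCm38). At E11.5 it stood at 64.2, 56.6 and 73.6 CPM in XX control libraries 1 to 3 and at 35.3, 21.4 and 23.5 CPM in XY control libraries. The KO libraries were lower, at 19.6, 29.7 and 22.2 CPM in XX KO and at 11.4, 7.79 and 10.97 CPM in XY KO gonads. XX control libraries lay above all others and XY KO libraries below all others, while XX KO and XY control libraries overlapped. The log2 difference between KO and control was −1.44 ± 0.20 (SE) in XX and −1.40 ± 0.21 in XY gonads, and the 2 effects differed by 0.04 ± 0.29.

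One day later the XX control libraries held 187, 129 and 138 CPM of Chrm4, but the XY control libraries held only 1.22, 1.86 and 0.521 CPM, which rest on 28, 43 and 6 counts. XX KO libraries were at 72.4, 63.4 and 52.7 CPM and XY KO libraries at 47.9, 53.8 and 59.4 CPM. The KO groups overlapped each other and lay between the controls. In XX gonads the deletion again went with a lower level, by a log2 difference of −1.27 ± 0.20. In XY gonads the direction was the opposite, with a mean in XY KO gonads of 53.7 ± 5.75 CPM, 44.7-fold that of XY control gonads, and a fitted log2 difference of 5.36 ± 0.28. The difference between the 2 effects, XY minus XX, was 6.63 ± 0.35, the largest of the 8 genes.

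The counts of Chrm4 depend on how it is annotated. The GENCODE model used for the position above holds the coding sequence alone, whereas the RefSeq model on GRCm38.p6 runs from 91922189 to 91929835 and overlaps the end of Mdk on the opposite strand. Mdk, a growth factor, was between 306 and 1184 CPM in all libraries. A second count table of the XY control libraries gave 0.509, 0.615 and 0.598 of the Chrm4 counts of the first at E11.5, and 0.607, 0.581 and 1.00 at E12.5, whereas the median gene with at least 50 counts had a ratio between 0.985 and 1.01. Which annotation or strand setting each table used is not given in the sources used here, and the part of Mdk reads in the Chrm4 counts was not tested. At E12.5 Mdk was at 379 ± 77.0 CPM in XX control and 368 ± 74.8 CPM in XY control gonads. Its means in the KO groups were 584 CPM (XX) and 388 CPM (XY), and the libraries of these groups overlapped. These levels do not show the source of the Chrm4 counts.

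Tacr3, the receptor for neurokinin B, is known for its part in the neuroendocrine control of reproduction. The gene spans 134829007 to 134934579 of chromosome 3, + strand. At E11.5 its level was low in every group, at 1.80, 1.90 and 2.104 CPM in XX control, 1.61, 1.56 and 1.61 CPM in XY control, 0.82, 2.00 and 3.09 CPM in XX KO and 1.89, 1.59 and 1.03 CPM in XY KO libraries. XX control libraries lay above XY control libraries by a small margin, and the KO groups overlapped both controls. XY control gonads then stood apart at E12.5, with 25.0, 23.9 and 25.9 CPM against 3.66, 3.23 and 2.81 CPM in XX control libraries. XX KO libraries held 2.63, 2.74 and 3.01 CPM and XY KO libraries 5.61, 5.26 and 4.97 CPM. So XY KO gonads lay 4.72-fold below XY control gonads, and 1.89-fold above XX KO gonads without overlap. The log2 difference of KO from control was −2.24 ± 0.16 in XY and −0.22 ± 0.17 in XX gonads at E12.5.

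Itga4 encodes an integrin alpha chain that pairs with a beta chain to bind Vcam1 and fibronectin. Its span is 79255426 to 79333123 of chromosome 2, + strand. Its level at E11.5 was 22.9, 18.6 and 16.8 CPM in XX control, 17.8, 24.4 and 21.1 CPM in XY control, 24.8, 17.2 and 18.9 CPM in XX KO and 26.5, 24.7 and 22.5 CPM in XY KO libraries. No pair of groups compared was free of overlap at that stage. At E12.5 the XY control libraries held 155, 118 and 164 CPM and the XX control libraries 14.9, 9.39 and 12.2 CPM, a 11.96-fold difference of means. XX KO libraries, at 11.47, 13.9 and 6.90 CPM, overlapped those of XX control gonads. XY KO libraries, at 32.9, 30.2 and 23.6 CPM, lay between the controls, 5.04-fold below XY control and 2.68-fold above XX KO gonads. The annotated span overlaps Cerkl, which was at most 0.928 CPM in any library, and the second table gave 0.876 to 0.913 of the first table's Itga4 counts in XY control libraries.

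Susd5 encodes a membrane protein with a link domain, the fold by which proteins bind hyaluronan, and with a sushi domain. It lies on chromosome 9 at 114057140 to 114098728 on the + strand and had the lowest total count of the 8 genes over the 24 libraries. At E11.5 the levels were 0.523, 0.468 and 0.684 CPM in XX control and 0.413, 0.521 and 0.285 CPM in XY control libraries, against 1.21, 1.11 and 1.34 CPM in XX KO and 1.96, 4.15 and 1.49 CPM in XY KO libraries. Both KO groups lay above all controls. The log2 difference was 2.60 ± 0.41 in XY gonads, which passed an FDR of 0.05, and 1.14 ± 0.41 in XX gonads, which did not. No control library reached 1 CPM at E11.5. Susd5 thus met the filter of 1 CPM in 2 libraries through KO libraries alone, so a rise was favoured in advance and this call supports nothing. Without XY KO replicate 2, the highest library, XX KO and XY KO gonads differed by −0.51 on the log2 scale in place of −1.05 ± 0.36. At E12.5 the XY control libraries had 8, 7 and 0 counts, or 0.348, 0.304 and 0 CPM, where 3 counts is taken as the limit of detection in a library. XX control libraries were at 1.13, 3.28 and 1.56 CPM, XX KO libraries at 1.48, 1.38 and 1.13 CPM and XY KO libraries at 1.52, 2.23 and 1.23 CPM, all above XY control libraries and all overlapping one another.

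Tgm3 encodes a transglutaminase, an enzyme that crosslinks proteins and is best known from the epidermis and hair. Located on chromosome 2 (130012349 to 130050399, + strand), it spans the microRNA gene Mir6339 as well. The E11.5 levels were 30.7, 31.3 and 33.3 CPM in XX control, 19.3, 25.8 and 15.7 CPM in XY control, 8.66, 9.05 and 9.41 CPM in XX KO and 5.04, 2.51 and 2.92 CPM in XY KO libraries. The 4 groups did not overlap at all, with XX control highest, then XY control, then XX KO, then XY KO. KO gonads were 3.51-fold lower than controls in XX and 5.80-fold lower in XY gonads. At E12.5 the XX control libraries spread widely, at 16.8, 8.73 and 5.31 CPM, and the XY control libraries were at 0.566, 1.08 and 0.261 CPM, on 13, 25 and 3 counts. XX KO libraries held 4.83, 5.19 and 5.23 CPM and XY KO libraries 8.48, 6.95 and 7.75 CPM, so here XY KO gonads lay above XX KO gonads, the reverse of E11.5. The log2 difference between KO and control was −1.02 ± 0.35 in XX gonads, which did not pass, and 3.48 ± 0.44 in XY gonads, which did. The difference between these effects was 4.50 ± 0.56, and 3.96 without XX control replicate 1.

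**Figure D3:**
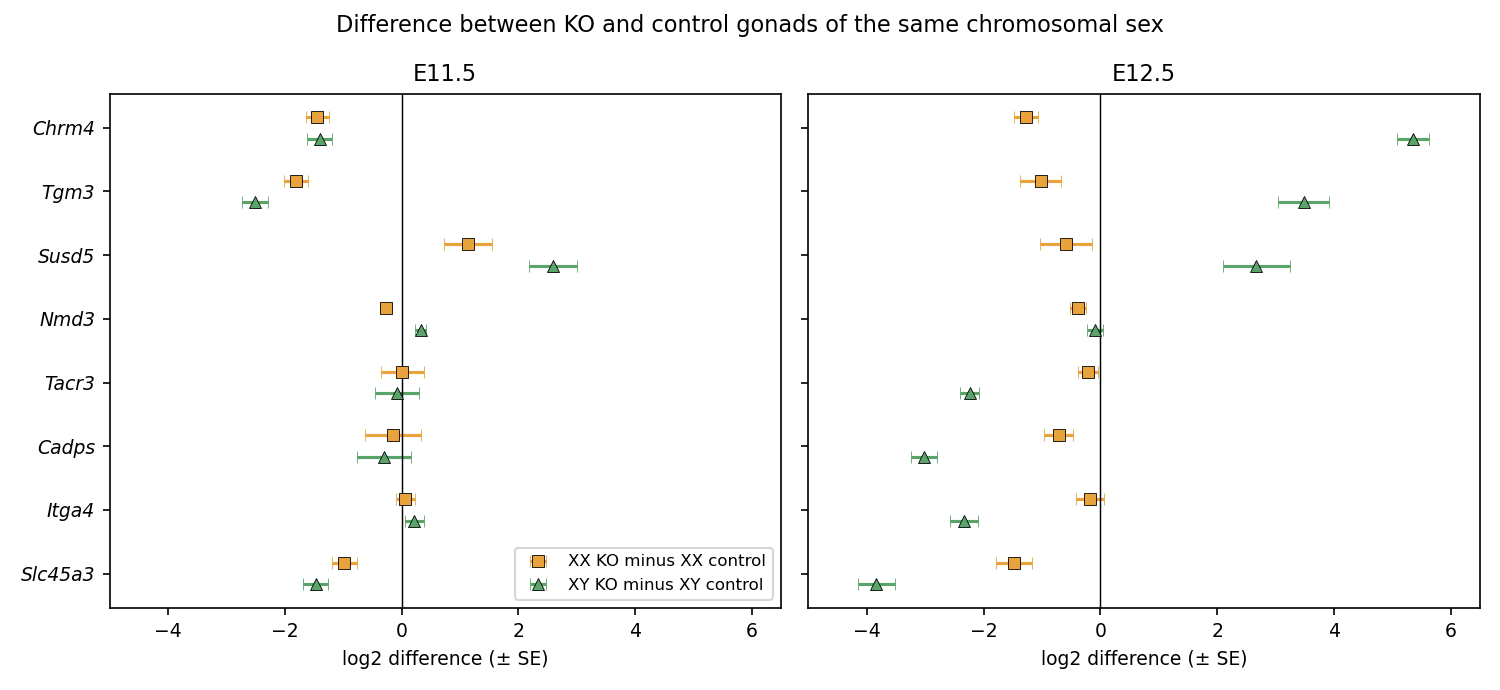
Log2 difference (x axis) between KO and control gonads for each of the 8 genes at E11.5 (left) and E12.5 (right), in XX gonads as squares and in XY gonads as triangles, with bars of 1 SE from the edgeR fit of 12 libraries per stage. At E11.5 both symbols lay more than 1 SE from 0 on the same side for Chrm4, Tgm3, Susd5 and Slc45a3, and at E12.5 the XY symbols of Chrm4, Tgm3 and Susd5 lay to the right of 0 and the XX symbols to the left.

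Cadps encodes a protein that primes dense-core vesicles for calcium-triggered secretion and is known from neurons and endocrine cells. It lies on chromosome 14 at 12372563 to 12823079 on the − strand and overlaps 6 small annotated genes. At E11.5 it was at 5.98, 4.21 and 3.997 CPM in XX control, 7.07, 9.19 and 8.02 CPM in XY control, 8.82, 1.96 and 1.80 CPM in XX KO and 7.48, 5.95 and 6.31 CPM in XY KO libraries. One XX KO library, replicate 1, thus lay within the range of XY control gonads and the other two below every other library. In the same library Sox10, a transcription factor of neural crest cells, was at 10.5 CPM against 0.425 and 0.553 CPM in the other XX KO libraries. The 5 neural markers reported (Elavl3, Tubb3, Sox10, Stmn2 and Th) summed to 51.6 CPM there against 14.5 and 22.5 CPM. XX control replicate 1 had a sum of 49.9 CPM and the highest Cadps level of its group. The highest sum at E11.5, 60.2 CPM, was in XY KO replicate 3, where Cadps was below XY KO replicate 1, whose sum was 36.7 CPM. The part of these markers' cells in the Cadps values was not tested. Without XX KO replicate 1 the log2 difference of XX KO from XX control gonads went from −0.15 to −1.32 and passed an FDR of 0.05. That of XX KO from XY KO gonads went from −0.64 to −1.81.

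For E12.5, Cadps was at 19.5, 23.5 and 20.6 CPM in XY control libraries and at 1.55, 1.97 and 1.38 CPM in XX control libraries. XX KO libraries were at 0.69, 1.15 and 1.13 CPM and XY KO libraries at 2.51, 2.90 and 2.43 CPM. All 4 groups were separate, in the order XY control, XY KO, XX control and XX KO. XY KO gonads were 8.11-fold below XY control and 2.64-fold above XX KO gonads. Sox10 followed the same order at its top, with 25.0, 32.7 and 21.6 CPM in XY control gonads and at most 1.28 CPM in any other library. The other 4 neural markers did not follow it, at 8.85 to 14.8 CPM in XY control and 6.76 to 15.4 CPM in the remaining libraries.

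**Figure D4:**
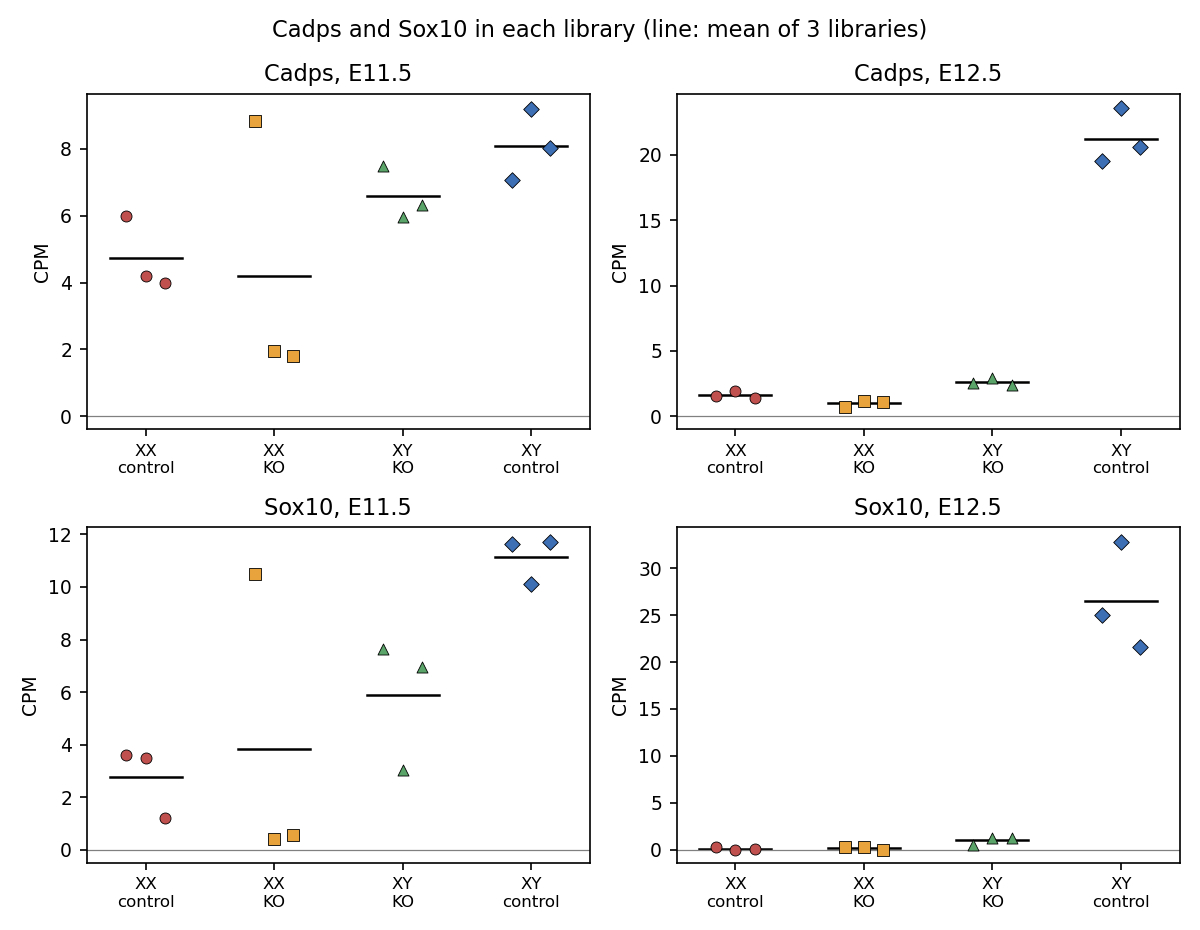
Level in CPM (y axis, linear) of Cadps and of Sox10 in every library at E11.5 and E12.5, by genotype. Points are single libraries and lines are means of 3. At E11.5 the XX KO library with 8.82 CPM of Cadps is also the one with 10.5 CPM of Sox10, and at E12.5 both genes are highest in the 3 XY control libraries.

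Slc45a3 encodes a membrane carrier of sugars, known from the prostate. It lies on chromosome 1 at 131962967 to 131982969 on the + strand and overlaps the annotated gene Gm29103. At E11.5 the controls held 4.18, 5.64 and 4.89 CPM (XX) and 6.61, 4.72 and 6.59 CPM (XY), and the KO gonads held 2.42, 2.59 and 2.49 CPM (XX) and 2.33, 1.79 and 2.31 CPM (XY). The KO groups did not overlap the controls, whichever sex. By E12.5 XY control libraries were at 29.6, 19.8 and 27.98 CPM and XX control libraries at 4.59, 4.04 and 3.94 CPM. XX KO libraries, at 1.81, 1.81 and 0.835 CPM, and XY KO libraries, at 1.05, 2.02 and 2.21 CPM, overlapped each other and lay below both controls. Slc45a3 was the only one of the 8 genes lower in both KO groups than in both control groups at both stages. Its log2 difference of KO from control was −1.48 ± 0.30 in XX and −3.84 ± 0.31 in XY gonads at E12.5, and −0.98 ± 0.21 and −1.47 ± 0.21 at E11.5.

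Nmd3 encodes the adaptor by which the large ribosomal subunit leaves the nucleus. It lies on chromosome 3 at 69721985 to 69756373 on the + strand, and its levels at E12.5 stayed within 43.5 to 77.9 CPM in all 12 libraries. At E11.5 it was at 46.7, 49.0 and 50.4 CPM in XX control and 43.5, 44.5 and 50.6 CPM in XY control libraries, which overlapped. XX KO libraries lay below all of them, at 37.4, 41.7 and 42.0 CPM, and XY KO libraries above, at 55.9, 61.2 and 57.1 CPM. The XX KO and XY KO means, 40.4 ± 2.57 and 58.1 ± 2.79 CPM (SD, n = 3), differed 1.44-fold. So the deletion went with a log2 difference of −0.27 ± 0.09 in XX gonads, which did not pass an FDR of 0.05, and of 0.33 ± 0.09 in XY gonads, which did. At E12.5 the KO groups overlapped, at 63.1, 56.3 and 43.5 CPM (XX) and 53.4, 54.3 and 57.1 CPM (XY), and the interaction of sex and deletion was 0.29 ± 0.20. XX control libraries, at 68.1, 77.9 and 66.8 CPM, were then above XY control libraries, at 51.0, 61.1 and 63.5 CPM.

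Across the genes, the XX KO and XY KO groups did not overlap for 5 of 8 at E11.5 (Chrm4, Tgm3, Susd5, Nmd3 and Slc45a3) and for 4 of 8 at E12.5 (Tgm3, Tacr3, Cadps and Itga4), where 24.5% and 20.1% of all tested genes did not overlap. In edgeR's quasi-likelihood test between XX KO and XY KO gonads, 3 of the 8 passed an FDR of 0.05 at E11.5 and 0.0844% of all tested genes (12) did. Of these 3, Chrm4 and Tgm3 were higher in XX KO gonads, by 1.24 ± 0.21 and 1.35 ± 0.23 on the log2 scale, and Nmd3 was lower there, by −0.52 ± 0.09. At E12.5 again 3 passed, against 0.153% of all genes (22), and these were Tacr3, Cadps and Itga4, at −0.92 ± 0.17, −1.38 ± 0.24 and −1.41 ± 0.24. In the interaction at E11.5 edgeR called 0 of the 8 and 0.0352% of all genes. At an unadjusted p under 0.05 there were 3 of the 8 and 12.8% of all genes, and DESeq2 called 1 of the 8 (Nmd3, 0.61) and 1.17% of all genes. Nmd3 also passed in edgeR without XY control replicate 2. At E12.5 7 of the 8 passed it, where 12.9% of genes did, Nmd3 being the exception. Across the alternatives the calls between XX KO and XY KO gonads ranged from 0 to 3 of 8 at each stage, those of the interaction from 0 to 1 at E11.5, and those of the E12.5 interaction stayed at 7. The 8 were chosen for these results, so nothing is read from the counts. Leaving out XY control replicate 2 at E11.5 raised the calls of XX KO against XY KO from 12 to 202 and those of the interaction from 5 to 231, and leaving out XX KO replicate 2 at E12.5 raised the 22 to 1828.

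The comparisons with controls use the same libraries as the contrasts that chose the genes, so their calls are given as description too. Between KO and control gonads of XX embryos, 3 of the 8 fell at E11.5 (Chrm4, Tgm3 and Slc45a3), where 3.27% of tested genes passed in either direction and 1.46% fell. The call of Slc45a3 was lost without XX control replicate 2 or 3 or without XX KO replicate 1 or 3. At E12.5, 2 of the 8 fell (Chrm4 and Slc45a3) where 5.26% of all genes passed and 1.85% fell, and both were lost without XX control replicate 1. Slc45a3 was also lost without XX control replicate 2 or XX KO replicate 3, and when only the 2 groups compared were fitted. Tgm3 joined them without XX control replicate 3, at −1.32, and with DESeq2, at −1.03. In XY embryos 5 of 8 passed at E11.5, with 12.7% of all genes, of which Susd5 and Nmd3 rose and Chrm4, Tgm3 and Slc45a3 fell. Nmd3 was lost without XY control replicate 1, without XY KO replicate 1 or 2, and when only the 2 groups compared were fitted. At E12.5, 7 of 8 passed in XY embryos, with 20.6% of all genes, and these were Chrm4, Tgm3 and Susd5, which rose, and Tacr3, Cadps, Itga4 and Slc45a3, which fell. The 7 calls stood with any 1 library left out.

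The 7 genes other than Nmd3 passed between the controls at E12.5, where 23.8% of all genes did. The interaction equals the difference between controls (XX minus XY) less that between KO groups (XX minus XY). Passing both is therefore not a separate observation. Chrm4, Tgm3 and Susd5 were higher in XX control gonads, by 6.85 ± 0.29, 3.90 ± 0.44 and 2.97 ± 0.56 on the log2 scale. Tacr3, Cadps, Itga4 and Slc45a3 were higher in XY control gonads, by log2 differences (XX minus XY) of −2.94 ± 0.17, −3.69 ± 0.23, −3.58 ± 0.25 and −2.62 ± 0.29. At E11.5 only Chrm4 of the 8 passed between controls, by 1.28 ± 0.20, where 0.886% of genes did. Tgm3, at 0.65 ± 0.20, joined it without XY control replicate 2.

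On a scale from 0 for the mean of XY control gonads to 100 for that of XX control gonads, in log2(CPM + 1), XY KO gonads at E12.5 stood at 76.2 for Chrm4, 91.0 for Tgm3 and 90.1 for Susd5. Among the genes high in XY control gonads the values were 78.1 for Tacr3, 85.0 for Cadps and 65.8 for Itga4. The value of Slc45a3 was 140, past the XX control mean. XX KO gonads stood at 71.7 to 79.7 for the first 3 genes and at 105 to 146 for the other 4. On this log2 scale XY KO gonads were thus nearer to XX control than to XY control gonads for all 7 genes, with Itga4 the least far along. In plain CPM the Chrm4 mean of XY KO gonads was instead nearer to that of XY control gonads. The 7 genes were chosen partly through the interaction, so such a position was favoured in advance. The share of all genes passing between controls with such a position was not computed. The paper reports that most genes took an ovarian pattern in mutants of both sexes at E12.5, and the positions of these chosen genes do not test that.

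**Figure D5:**
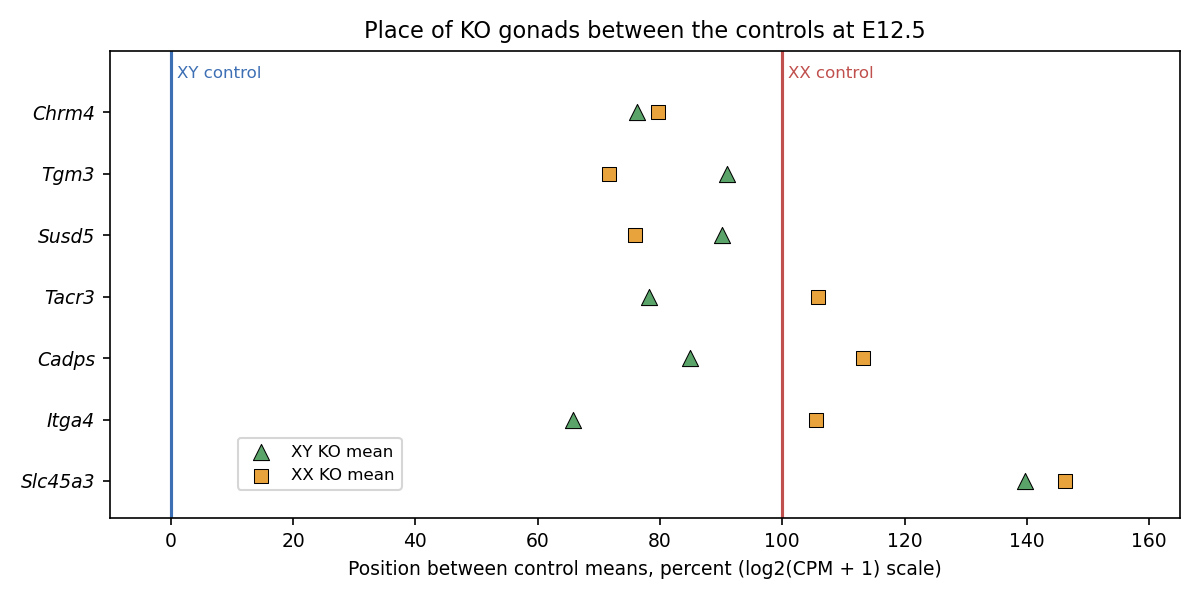
Position of the XY KO (triangles) and XX KO (squares) means between the XY control mean, set at 0, and the XX control mean, set at 100, in percent of the difference in log2(CPM + 1), for the 7 genes that passed between controls at E12.5. XY KO gonads lay between 65.8 for Itga4 and 140 for Slc45a3.

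In bulk samples, fewer cells of a type and less RNA per cell cannot be told apart, and marker lists moved with the genes. At E12.5 the 6 Sertoli cell markers (such as Sox9 and Amh) summed to 1405 to 2036 CPM in XY control and to 21.1 to 51.1 CPM in all other libraries, and the 5 fetal Leydig cell markers (such as Cyp17a1 and Insl3) to 822 to 1767 CPM against 31.3 to 53.9 CPM. The 6 pre-granulosa markers (such as Foxl2 and Fst) summed to 78.3 to 105 CPM in XY control and to 546 to 978 CPM in the other libraries. Between the KO groups, the Sertoli list was at 34.3 to 51.1 CPM in XY KO and 21.2 to 22.9 CPM in XX KO libraries. That split had the direction of Tacr3, Cadps and Itga4. The pre-granulosa list was at 546 to 586 CPM in XY KO and 677 to 978 CPM in XX KO libraries, whereas Tgm3 was higher in XY KO. The Leydig sums of the KO groups overlapped. No marker of these 3 lists was at 0 in every library of a group. The order of the groups in the Sertoli and Leydig lists is that of Tacr3, Cadps, Itga4 and Slc45a3 at its top, and the order in the pre-granulosa list is that of Chrm4, Tgm3 and Susd5 at its bottom. At E11.5 the Sertoli list was at 87.8 to 223 CPM in XY control and 26.7 to 46.7 CPM in the other libraries. The pre-granulosa list was then highest in XX control gonads, at 384 to 391 CPM, followed by 274 to 327 CPM in XX KO, 239 to 290 CPM in XY control and 220 to 240 CPM in XY KO gonads, with the same groups at its top and bottom as for Chrm4. The Leydig list was at 22.9 to 32.2 CPM in the control and 13.4 to 18.3 CPM in the KO libraries of E11.5, without overlap, in the direction of Chrm4, Tgm3 and Slc45a3. The part of these cell types in the values of the 8 genes was not tested.

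Of the remaining lists, the 8 mesonephric markers at E11.5 summed to 317 to 342 CPM in XX control and 207 to 352 CPM in XY control libraries. The highest sum was in XY control replicate 2. KO libraries were at 257 to 305 CPM (XX) and 215 to 224 CPM (XY), without overlap. That split had the direction of Chrm4, Tgm3 and Slc45a3 and was opposite to Susd5 and Nmd3. The part of the mesonephros in those values was not tested. At E12.5 the mesonephric sums were 29.8 to 147 CPM, with the 2 highest values in XX KO replicates 2 and 3 (126 and 147 CPM). XX KO replicate 3 also had the lowest sum of the 5 germ cell markers at E12.5, 312 CPM against 602 to 1423 CPM in the other libraries. That library was the lowest of its group for Chrm4, Susd5, Nmd3, Itga4 and Slc45a3. The part of these cells in those values was not tested. The 5 macrophage markers summed to 68.4 to 94.8 CPM in the control and 41.2 to 62.3 CPM in the KO libraries of E11.5, without overlap and in the direction of Chrm4, Tgm3 and Slc45a3, and to 30.1 to 45.8 CPM at E12.5. Their part in those genes' values was not tested. Endothelial, erythroid and adrenal markers summed to 465 to 725, 168 to 1256 and 1.51 to 14.6 CPM, and the 3 adrenal markers were highest in XY control gonads at E12.5, at 7.94 CPM or more against 3.17 CPM or less.

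Other genes of the 8 pathways were taken from 8 lists that hold 109 genes beside the members, of which 90 were tested at E11.5 and 88 at E12.5. In XX gonads 6 rose and 3 fell with the deletion at E11.5, where 1.81% of all tested genes rose and 1.46% fell, and 7 rose and 3 fell at E12.5, where 3.42% rose and 1.85% fell. In XY gonads 7 rose and 8 fell at E11.5, beside 5.88% and 6.81% of all genes, and 14 rose and 18 fell at E12.5, beside 10.3% in each direction. The median log2 difference over all tested genes lay between −0.03 and 0.00 in the 4 comparisons. In XY gonads at E12.5, the list medians were −0.30 for acetylcholine signalling, 1.25 for transglutaminases, 0.06 for hyaluronan and sushi-domain genes, −0.15 for ribosome maturation, −0.60 for tachykinin and kisspeptin genes, 0.08 for vesicle secretion, −0.23 for integrin partners and −0.18 for sugar carriers.

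For acetylcholine signalling, 1 of 9 tested genes rose in both sexes at E11.5 and 2 of 7 fell in XY gonads at E12.5. Bche, which breaks down choline esters, rose at E11.5 by 0.73 (FDR = 0.0397, edgeR) in XX and by 1.14 (FDR = 0.0014) in XY gonads. Chrm3, another muscarinic receptor, fell by 2.27 on the log2 scale in XY gonads at E12.5 (FDR = 0.00256, edgeR). Of the transglutaminases, 1 of 6 rose at E11.5, in XY gonads. By E12.5 1 of 5 rose in XX and 2 of 5 in XY gonads. Tgm5 rose in XY gonads at both stages, by 0.88 (FDR = 0.00712, edgeR) and, from 0.0724 ± 0.0904 CPM, by 4.35 (FDR = 0.01). Tgm2, the broadly expressed member of the family, rose in XX gonads at E12.5 by 1.18 (FDR = 0.011, edgeR) and had a log2 difference of 0.16 in XY gonads. No Tgm gene of the list fell at either stage, whereas Tgm3 itself fell in both sexes at E11.5.

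All 21 hyaluronan and sushi-domain genes were tested, and in XY gonads at E12.5 7 rose and 6 fell. Susd3 fell by 2.43 on the log2 scale (FDR = 7.15e-06, edgeR) and Cemip, which degrades hyaluronan, fell by 1.84 (FDR = 1.17e-05), both opposite to Susd5. For ribosome maturation edgeR called 0 of 14 in either sex at E11.5, with 1 of 14 in XX and 2 of 14 in XY gonads at an unadjusted p under 0.05 (15.7% and 28.9% of all genes), and DESeq2 called 0 and 1 (5.47% and 16.5% of all genes). At E12.5 1 of 14 fell in XX and 2 of 14 fell in XY gonads. Rpl10l fell by 1.16 in XX gonads (FDR = 0.0249, edgeR), and Sbds, a subunit maturation factor, fell by 0.45 in XY gonads (FDR = 0.025). Among tachykinin and kisspeptin genes 1 of 7 rose and 2 of 7 fell in XY gonads at E12.5. Oprk1, the kappa opioid receptor, rose by 5.39 (FDR = 6.52e-05, edgeR) from 0.029 ± 0.0503 to 1.70 ± 0.582 CPM, and Pdyn, which encodes its peptide ligands, fell by 2.39 (FDR = 0.000203), from 32.8 ± 4.31 to 6.31 ± 2.03 CPM.

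For vesicle secretion 2 of 16 rose and 2 of 16 fell in XY gonads at E12.5. Cadps2, the paralogue of Cadps, rose in XX gonads by 0.92 (FDR = 0.0474, edgeR) and in XY gonads by 1.28 (FDR = 0.00201), while Cadps fell in XY gonads. Unc13b, another vesicle priming factor, fell by 1.36 in XY gonads (FDR = 1.26e-05, edgeR). All 13 integrin genes were tested. At E11.5, 3 rose and 3 fell in XX gonads, beside 1.81% and 1.46% of all genes. In XY gonads at that stage 2 rose and 3 fell, beside 5.88% and 6.81%. At E12.5, 2 rose and 0 fell in XX gonads, beside 3.42% and 1.85% of all genes. For XY gonads 2 rose and 3 fell then, beside 10.3% in each direction. Spp1, a secreted integrin ligand, fell by 1.56 in XX gonads (FDR = 0.00124, edgeR) and fell by 3.08 in XY gonads (FDR = 2.01e-06) at E11.5, and fell by 2.97 in XY gonads at E12.5 (FDR = 5.77e-07). Itga9, the alpha chain closest to Itga4, rose by 0.61 in XX gonads (FDR = 0.0158, edgeR) and fell by 1.41 in XY gonads (FDR = 1.64e-06) at E12.5. Of the sugar carriers 1 of 5 fell in XY gonads at both stages, which was Slc45a4, with log2 differences of −0.70 and −0.90 (FDR = 0.00134 and 0.000461, edgeR). Slc2a3, a glucose transporter, fell by 0.55 in XX gonads at E12.5 (FDR = 0.0346, edgeR).

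Of the genomic neighbours, the tested genes whose start lay within 1 Mb of the start of one of the 8, edgeR called 0 of 119 in either contrast at E11.5. At an unadjusted p under 0.05 there were 13 between XX KO and XY KO gonads, beside 16.1% of all genes, and 10 in the interaction, beside 12.8%. DESeq2 called 1 and 2, beside 2.31% and 1.17% of all genes. At E12.5 edgeR and DESeq2 each called 0 of 118 between XX KO and XY KO gonads, where DESeq2 called 0.46% of all genes, with 28 at an unadjusted p under 0.05 beside 19.2% of all genes. In the interaction 13 of 118 passed at that stage, where 12.9% of all genes did. For Chrm4 these were Chst1, Creb3l1 and Mybpc3, for Tgm3 Pdyn and Slc20a1, and for Slc45a3 Mapkapk2, Nuak2, Rassf5 and Srgap2. Glb1 lay near Susd5, 1110032F04Rik near Nmd3, Cxxc4 near Tacr3 and Pde1a near Itga4, and none was near Cadps.

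The pattern over the 24 libraries was compared with that of 13783 genes tested at both stages, as Pearson's r of log2(CPM + 1) after the mean of each stage was removed. The libraries share their genotype groups, so r describes likeness and is no test. Chrm4 was most like Scrt2 (r = 0.984) and Tmem171 (0.983), Tgm3 like Atp2b3 (0.928) and Rasa3 (0.925), and Susd5 like Lonrf1 (0.828) and Cdca7l (0.814). Tacr3 was most like Iqgap2 (0.958) and Hspa12a (0.949), Cadps like Sox10 (0.966) and Prokr2 (0.950), and Itga4 like Stox2 (0.960) and Nt5e (0.959). For Slc45a3 the genes were Cyp11a1 (0.964), which starts steroid synthesis, and Camkk2 (0.956), and for Nmd3 Vbp1 (0.901) and Dcaf13 (0.896). With a pseudocount of 0.1 CPM in place of 1 both genes changed for Tgm3, to Ttc38 and Bhlhe41, and 1 of 2 for Susd5 and for Itga4. Within 1 stage alone at most 1 of the 2 genes stayed the same for any member.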

How the data were processed

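The authors aligned the paired reads to mm10 and summed them by gene with subread's align and featureCounts in R. What they deposited are raw counts, not normalized, in 1 table per stage. Strand setting and annotation are not given in the sources used here. The 8 members and all gene lists were chosen with earlier results of these data known.

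Each library was matched to its genotype through its label. No label names a litter, batch or day, so p-values measure only the spread between these libraries. The test covered genes that reached 1 CPM in 2 or more of a stage's 12 libraries, as in the paper. With R 4.3.3 and edgeR 4.0.16, 1 quasi-likelihood model per stage (TMM scaling, robust fit, a mean per genotype) gave each comparison, the interaction being the KO effect in XY minus that in XX gonads. FDR is the Benjamini-Hochberg adjusted p over all tested genes and 0.05 the threshold. SE is the size of the log2 difference divided by the square root of F. The fit was tested on simulated data in which 200 genes changed 2-fold in XX KO gonads. Against XX control it called 81% of them at E11.5 and 69% at E12.5. In the interaction it called 65.5% and 29%, so a gene not called there may still differ. No other gene changed in the simulation, whereas 1857 genes were called in the measured interaction at E12.5. The shares found in the measured data may therefore differ from these. CPM errors are SDs of 3 libraries. DESeq2 1.42.0, other scalings, no filter, a replicate block, only the groups compared and leaving out each library were alternatives. Deviations of same-numbered libraries from their group means correlated at −0.38 to 0.35. Libraries with different numbers were not compared, so these values do not show whether a number marks a shared litter or batch.

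Named genes were the 8 members, up to 2 genes per pathway list with the smallest FDR in comparisons of KO with control, called neighbours within 1 Mb, the 2 most alike genes per member, the markers, Xist, Ddx3y and Mir17hg; Sox10, Mdk and Cerkl beside them were chosen after their values were seen. Positions are GRCm38, the build of mm10, from GENCODE M21. The deposited count tables of Foxl2 mutants hold the XY control libraries in a second counting, and 6 mutant columns whose names do not separate eye from gonad and which were not used. Single-cell data are not analysed here. One marker of the neural list is not reported here, and its sums are over the others.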

Additional observations from a re-analysis of the deposited data

Results flagged for a closer look

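A difference between XX and XY gonads in the effect of the deletion passed the interaction test at E12.5 for 7 of the 8 genes, which were chosen for it. The log2 interaction was 6.63 for Chrm4, 4.50 for Tgm3, 3.26 for Susd5, −2.02 for Tacr3, −2.31 for Cadps, −2.17 for Itga4 and −2.36 for Slc45a3.

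Among the genomic neighbours the same test passed for 13 of 118 genes at E12.5, where 12.9% of all tested genes passed, so the count itself is not remarkable. The value was −1.70 for Chst1, −1.42 for Creb3l1, −6.04 for Mybpc3, −3.43 for Pdyn, −0.51 for Slc20a1, −0.84 for Glb1, −3.06 for 1110032F04Rik, −1.58 for Cxxc4, 0.95 for Pde1a, −0.66 for Mapkapk2, −0.86 for Nuak2, −2.92 for Rassf5 and 0.66 for Srgap2.

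Of the pathway genes named, it passed at E12.5 for Tgm2 (−1.02), Susd3 (−2.35), Cemip (−2.16), Oprk1 (6.21), Unc13b (−1.04), Spp1 (−3.08), Itga9 (−2.02), Slc45a4 (−0.71) and Slc2a3 (0.72). Pathway genes were named for a small FDR between KO and control gonads, which favoured a pass, so nothing is read from their number. Groups of 3 libraries are too small for a search for single outlying libraries.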

How the results depend on the processing

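Most values kept their direction and their side of the threshold. With DESeq2 the genes called were 328 in place of 12 (XX KO against XY KO), 167 in place of 5 (interaction), 778 in place of 465 (XX KO against XX control) and 439 in place of 126 (controls) at E11.5, and 66 in place of 22 and 1456 in place of 755 (XX KO against XY KO and against XX control) at E12.5. Without the filter on low counts the interaction had 14 calls at E11.5. With only the 2 groups compared, XY KO against XY control had 790 calls in place of 1804 at E11.5, and at E12.5 XX KO against XY KO had 11 and XX KO against XX control 252, with 1 member in place of 2. The mean of Tacr3 in XY control gonads at E11.5 was 1.63 CPM by library size alone and 1.59 by TMM. For Tacr3 the E11.5 difference of XX KO from XX control gonads, 0.01, became −0.043 by library size and −0.021 with the replicate block, neither called.

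With each library left out in turn, calls ranged from 8 to 202, 1 to 231, 143 to 663, 814 to 2899 and 56 to 2505 at E11.5 (XX KO against XY KO, interaction, XX KO and XY KO against their controls, controls), each highest without XY control replicate 2. At E12.5 they ranged from 14 to 1828 between XX KO and XY KO and from 35 (without XX control replicate 1) to 1680 between XX KO and XX control gonads, the upper ends without XX KO replicate 2. Members called ranged from 1 to 2 between controls at E11.5 and from 0 to 3 between XX KO and XX control gonads at E12.5. Log2 differences not called with all libraries changed sign: in XX gonads at E11.5 Tacr3 (−0.48 to 0.39), Cadps (−1.32, called without XX KO replicate 1, to 0.19) and Itga4 (−0.10 to 0.20), in XY gonads at E11.5 Tacr3 (−0.28 to 0.13), and in XX gonads at E12.5 Itga4 (−0.40 to 0.066). The cause was not tested.

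The fit with the replicate number as a block called 388 genes between XX KO and XX control at E11.5 and 1716 in the interaction at E12.5, and changed no call of a member in the comparisons with controls. No label says whether a number marks a shared litter or batch. Within 5 Mb, 57 of 439 neighbours passed the interaction at E12.5, where 12.9% of all tested genes did. Low counts (Susd5, and Chrm4 and Tgm3 in XY control gonads at E12.5) limit the precision of their folds.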
